A study of Mus musculus with 4 samples.

Results

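The glutathione, thioredoxin and peroxiredoxin systems are the thiol chemistry with which a cell removes peroxides and electrophiles. Their genes were taken by symbol: cytosolic and membrane-bound glutathione transferases, glutathione peroxidases, the enzymes that make, reduce and break down glutathione, glutaredoxins, thioredoxins and their reductases, peroxiredoxins and sulfiredoxin. The rule found 57 genes among the 48431 listed, no symbol was listed more than once, and all 57 are protein-coding in GENCODE M21. RNA came from dorsal root ganglia, which hold the cell bodies of the neurons for touch, pain and temperature, and the mice were males of strain label SW and genotype label WT (age not given in the labels). All 4 libraries belong to the same group, mice given methylglyoxal (MGO), a reactive dicarbonyl formed from glycolytic intermediates, by intraperitoneal injection at 2 mg/kg for 6 days. No library of untreated or vehicle mice was analysed here, so the values below are levels in treated ganglia and no response to MGO was measured. Nothing in the labels ties each library to an animal of its own, so a p-value here covers the library-to-library spread only, which may be technical.

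Glutathione is a cysteine-containing tripeptide. Glutamate-cysteine ligase joins glutamate and cysteine, glutathione synthetase adds glycine, and glutathione reductase returns the oxidised form to the reduced form with NADPH. Glutathione peroxidases spend it on peroxides, glutathione transferases attach it to electrophiles, and glutaredoxins use it to reduce protein disulfides. The thioredoxin system runs beside it: thioredoxin reductase passes electrons from NADPH to thioredoxin, which recycles peroxiredoxins, and sulfiredoxin rescues peroxiredoxins that have been over-oxidised. Methylglyoxal reacts with glutathione without an enzyme, and the adduct is the substrate of glyoxalase 1, which is why glutathione supply is of interest in ganglia exposed to it.

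The values are CPM, reads per gene scaled to 1000000 in each library. If the smallest step between values is 1 read, the libraries held 10138800, 8975694, 5576840 and 7223763 reads in replicates 1 to 4, and the values of all 57 members came out as whole reads in each library, within 0.05 of a read. Where a gene is at 0, up to 3 reads cannot be told from none, which is 0.296, 0.334, 0.538 and 0.415 CPM in replicates 1 to 4 and covers counting error only. The libraries formed 2 pairs, since the 18S ribosomal RNA entries made up 8.26% and 10.8% of replicates 3 and 4 and were at 0 in the other two. The origin of this split is not known, and values are therefore given per library or per pair. Pan-neuronal marker genes summed to 10825 to 12479 CPM and sensory neuron markers to 1420 to 1482 CPM, as neuronal tissue should show, and liver markers stayed at 0 to 0.891 CPM, with Alb and Serpina1c at 0 throughout. Schwann cell markers (8 of 8 above 0) summed to 30280 to 31115 CPM in replicates 1 and 2 and 17293 to 17508 CPM in replicates 3 and 4. Satellite glia markers (5 of 5) summed to 1165 to 1202 and 556 to 608 CPM in the same order, and red blood cell markers (5 of 5) to 955 to 1071 and 498 to 534 CPM. The sum of the macrophage list (5 of 5 with a mean above 0) was also higher in replicates 1 and 2 (199 to 248 and 143 to 145 CPM). C1qa led it (167, 209, 118 and 122 CPM), C1qb and Csf1r were called below the median gene, and Cd68 was at 0 in replicates 3 and 4. Higher in replicates 1 and 2 as well were the sums of the skeletal muscle list (4 of 4, 828 to 846 and 416 to 485 CPM) and the central astrocyte list. The latter (4 of 4 above 0) summed to 198 to 201 and 51.5 to 53.4 CPM. Aldoc carried the astrocyte sum (188, 191, 33.2 and 33.1 CPM), while Aqp4, Gfap and Slc1a2 had higher pair means in replicates 3 and 4. Central oligodendrocyte markers (3 of 3) stayed at 3.68 to 6.23 CPM. In bulk tissue, fewer cells of a type and less RNA per cell cannot be told apart.

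Of the 57 genes, 7 carry a selenocysteine codon in the annotation: 4 glutathione peroxidases and the 3 thioredoxin reductases. Selenocysteine, the selenium form of cysteine, is the catalytic residue of these enzymes and is read from a TGA codon that would otherwise stop translation. The stretches below are coding sequence around that codon from GENCODE M21 transcripts (GRCm38), 5′ to 3′ on the sense strand, with the selenocysteine codon in capitals. They are shown because levels of these genes are described below and because they show where the codon lies in each family.
Gpx1: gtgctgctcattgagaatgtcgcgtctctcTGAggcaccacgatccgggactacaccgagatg
Gpx2: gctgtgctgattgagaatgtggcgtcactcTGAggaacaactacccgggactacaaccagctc
Gpx3: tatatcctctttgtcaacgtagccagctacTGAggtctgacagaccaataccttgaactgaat
Gpx4: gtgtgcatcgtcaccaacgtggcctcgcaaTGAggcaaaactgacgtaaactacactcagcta
Txnrd1: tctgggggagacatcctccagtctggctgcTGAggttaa
Txnrd2: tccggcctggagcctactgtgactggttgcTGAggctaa
Txnrd3: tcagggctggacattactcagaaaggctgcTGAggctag
In the peroxidases the codon lay well inside the reading frame, at codon 47 of 201 in Gpx1, 40 of 190 in Gpx2, 73 of 226 in Gpx3 and 129 of 253 in the longest Gpx4 transcript. In the reductases it was the codon before the last, 612 of 613 in Txnrd1, 526 of 527 in Txnrd2 and 614 of 615 in Txnrd3, with the ordinary stop right after the glycine codon that ends the protein. Gpx5, Gpx6, Gpx7 and Gpx8 have no such codon in the annotation.

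Of the 57 genes, 6 were listed at 0 in every library, 8 had reads but a mean under 1 CPM, and 43 reached a mean of 1 CPM, the minimum for a test. A mean of 10 CPM was reached by 23 genes and 100 CPM by 8: Txn1, Prdx1, Glrx5, Gpx4, Prdx2, Glrx3, Txnrd1 and Gpx1. The summed share of the 57 was 0.456% and 0.468% in replicates 1 and 2 but 0.235% and 0.215% in replicates 3 and 4. The groups differed widely: peroxiredoxins with sulfiredoxin held 0.105% ± 0.0741 of reads (SD, n = 4), thioredoxins with their reductases 0.0860% ± 0.0562, glutaredoxins 0.0602% ± 0.00836 and glutathione peroxidases 0.0551% ± 0.0114. All 24 glutathione transferases together held 0.00842% ± 0.00428. In replicates 3 and 4 the glutathione peroxidases held the largest of the 12 group shares (0.0670% and 0.0624%), and in replicates 1 and 2 the peroxiredoxins did (0.160% and 0.179%).

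**Figure D1:**
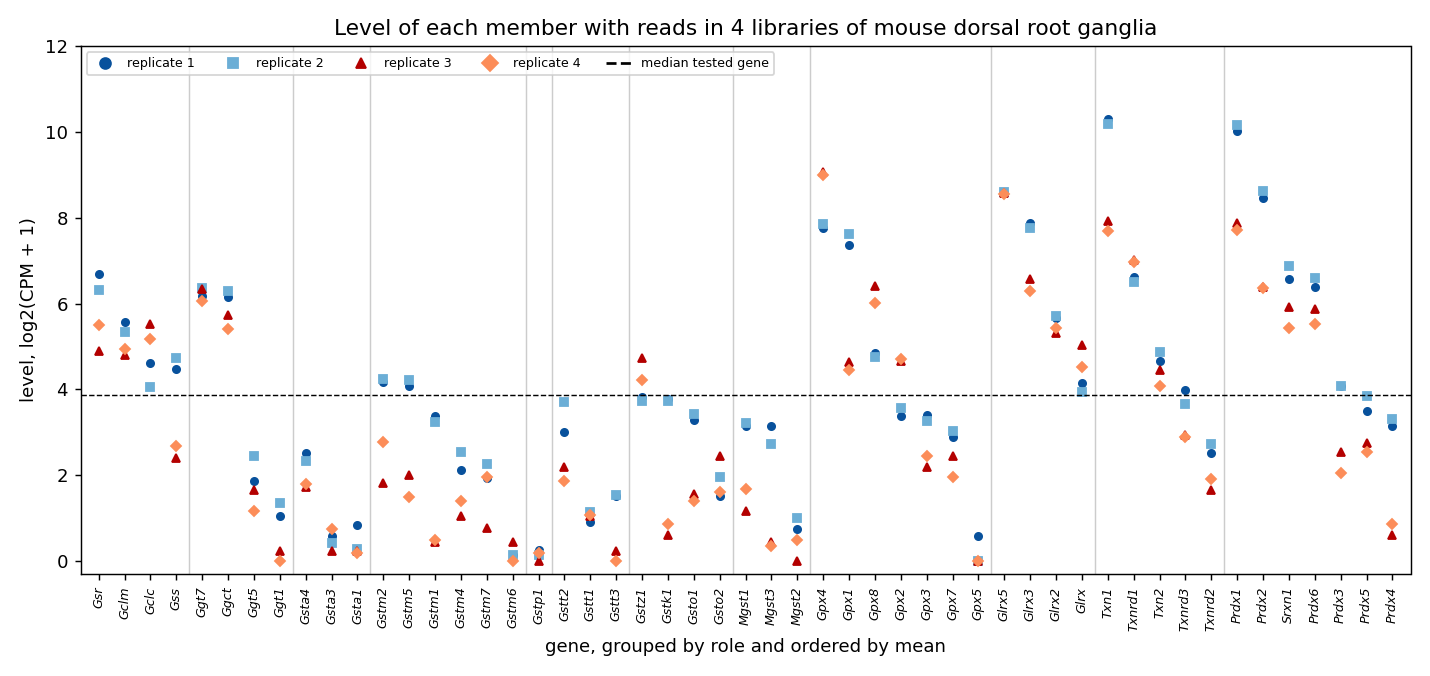
Level of each of the 51 members with reads, as log2(CPM + 1), in the 4 libraries (1 point per library), grouped by role from glutathione synthesis (left) to peroxiredoxins (right) and ordered by mean within a group. The dashed line is the mean over libraries of the median tested gene (13.5 CPM). Txn1 and Prdx1 reach the top of the plot in replicates 1 and 2, and most transferases lie under the line.

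**Figure D2:**
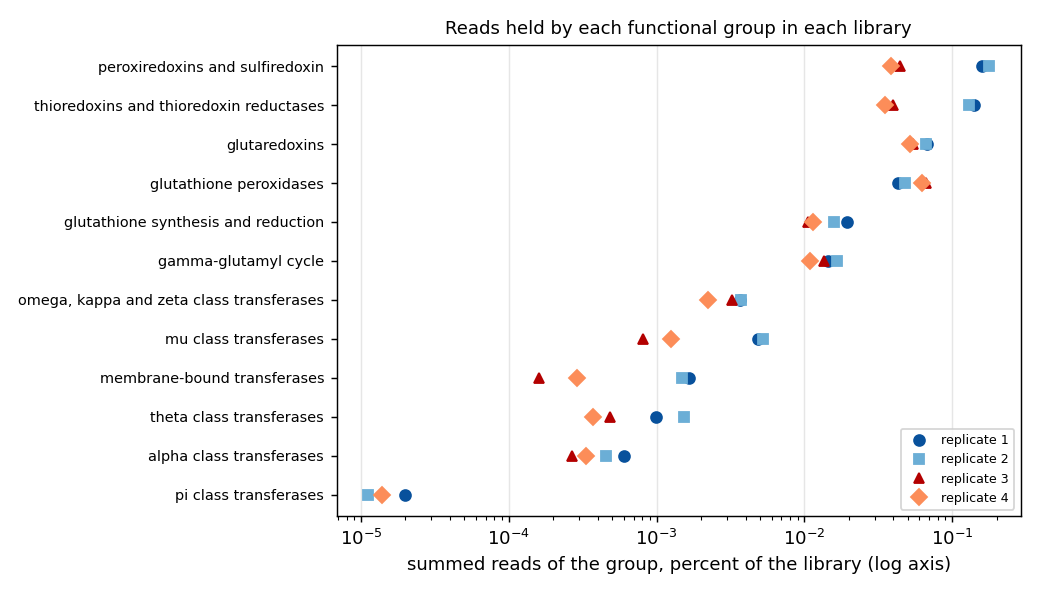
Summed reads of each of the 12 functional groups as percent of the library (log axis), 1 point per library. Peroxiredoxins and thioredoxins lie farther right in replicates 1 and 2, and glutathione peroxidases in replicates 3 and 4. The pi class is at 0 in replicate 3 and has no point there.

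To place each gene within its library, its level was set against the median tested gene, which stood at 15.2, 14.6, 12.4 and 11.9 CPM in replicates 1 to 4. Of the 43 tested members, 18 were above it and 17 below it at a limma adjusted p under 0.05, and 8 did not pass. Among all 14817 tested genes, 39.7% were called above and 39.7% below, so the members, at 41.9% and 39.5%, were called about as often as any gene. Their median level of 14.2 CPM was also close to the 14.3 CPM of all tested genes. By role, 7 of the 12 thioredoxin, reductase, peroxiredoxin and sulfiredoxin genes were above the median gene, and none of the 14 tested transferases was, while 11 of those were below. The fit treats the 4 libraries as independent. With the library pair means as the values, 16 members were called above and 15 below. Those counts cannot show that calls survive the pairing, because p in that fit followed the size of the difference and not each gene's spread. On pair means Txn1, 5.43-fold apart between pairs, had a limma adjusted p = 2.24e-22, below the 6.98e-19 of the level Glrx5. For Gstk1, 18.2-fold apart, the limma adjusted p fell from 0.0433 to 0.00315. Calls kept or lost on pair means are to be read with this limit. Reads of a 3′-end library do not grow with transcript length, so levels of different genes are compared as CPM, and each order was recomputed on CPM per kb of exonic length. Folds between genes were taken after adding 1 CPM, so those of low genes are understated. With 4 libraries the exact sign-flip test used for gene pairs cannot go below p = 0.13 (rounded), so no order of genes can pass a threshold of 0.05.

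Thioredoxin 1, the cytosolic and nuclear thioredoxin, and peroxiredoxin 1, the cytosolic peroxidase that it recycles, were the most abundant members by mean. Txn1 (chromosome 4, 57943373 to 57956411, GRCm38) had 1254, 1158, 239.9 and 204 CPM in replicates 1 to 4, and Prdx1 (chromosome 4, 116685544 to 116700822) had 1036, 1146, 234 and 209.6 CPM. The 2 genes kept nearly the same level within every library although both were about 5 times higher in replicates 1 and 2, and the pairs of libraries did not overlap. Txn1 lay 35.8-fold above the median gene, with a log2 difference of 5.16 (SE 0.47) and a limma adjusted p = 0.000164, above it in 4 of 4 libraries, and Prdx1 34.1-fold, with a log2 difference of 5.09 (SE 0.44) and a limma adjusted p = 0.000139, also in 4 of 4. The difference between them, a log2 of 0.07 ± 0.14 (SD, n = 4), was smaller than its spread (exact sign-flip p = 0.5).

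The mitochondrial counterparts were far lower. Txn2, the mitochondrial thioredoxin, had 24.5, 28.3, 20.8 and 15.8 CPM, and Prdx3, the mitochondrial peroxiredoxin that it serves, had 15.9, 16.0, 4.84 and 3.18 CPM. Txn1 exceeded Txn2 22.6-fold (log2 difference 4.50 ± 1.12) and Prdx1 exceeded Prdx3 53.8-fold (log2 difference 5.75 ± 0.33), each in 4 of 4 libraries (exact sign-flip p = 0.13 for both). Prdx3 had lower values than the median gene in replicates 3 and 4 only and did not pass (limma adjusted p = 0.128). Txn2 was called 1.58-fold above the median gene (limma adjusted p = 0.0105), and the call was lost without replicate 2 (adjusted p = 0.0552) and on library pair means (adjusted p = 0.244).

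Prdx2, a cytosolic peroxiredoxin that is also abundant in red blood cells, had 351, 391, 83.2 and 80.7 CPM and kept a near-constant ratio to Prdx1. Prdx1 exceeded it 2.96-, 2.93-, 2.81- and 2.60-fold in replicates 1 to 4 (log2 difference 1.49 ± 0.09, 4 of 4 libraries, exact sign-flip p = 0.13). The sum of the red blood cell markers was also lower in replicates 3 and 4, as given above, though Hba-a2 and Alas2 were higher there. The part of red blood cells in the level of Prdx2 was not tested. Prdx6, the peroxiredoxin that works with glutathione through a single catalytic cysteine, had 82.7, 94.9, 57.6 and 44.9 CPM, and Srxn1 had 93.8, 117, 59.5 and 42.2 CPM. These 2 genes could not be ranked (log2 difference 0.11 ± 0.16, higher Srxn1 in 3 of 4 libraries, exact sign-flip p = 0.375). Prdx5, found in mitochondria and peroxisomes, had 10.3, 13.5, 5.74 and 4.85 CPM, and the endoplasmic reticulum form Prdx4 had 7.89, 8.91, 0.538 and 0.831 CPM. Both were called below the median gene (limma adjusted p = 0.0281 and 0.0124). For Prdx5 the call was lost without replicate 1, 3 or 4 (adjusted p = 0.0596, 0.0979 and 0.102) and on library pair means (0.222). The values of Prdx4 in replicates 3 and 4 stand for only 3 and 6 reads.

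Txnrd1, the cytosolic thioredoxin reductase, had 97.9, 89.5, 127 and 124 CPM. It was higher in replicates 3 and 4, opposite to its substrate Txn1, so that Txn1 exceeded Txnrd1 12.8- and 12.9-fold in replicates 1 and 2 but 1.88- and 1.64-fold in replicates 3 and 4. The mitochondrial reductase Txnrd2 had 4.73, 5.68, 2.15 and 2.77 CPM and Txnrd3, a reductase best known from testis, 14.8, 11.6, 6.63 and 6.37 CPM. Txnrd1 exceeded Txnrd2 23.7-fold (log2 difference 4.57 ± 0.76, 4 of 4 libraries, exact sign-flip p = 0.13), and Txnrd3 exceeded Txnrd2 2.23-fold (log2 difference 1.15 ± 0.26, 4 of 4, exact sign-flip p = 0.13). Txnrd1 was 7.58-fold above the median gene (limma adjusted p = 7.18e-05), Txnrd2 was below it by a log2 difference of -1.65 (limma adjusted p = 0.000461) and Txnrd3 did not pass (limma adjusted p = 0.062).

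Among the glutathione peroxidases, Gpx4, the selenoenzyme that reduces lipid peroxides within membranes and restrains ferroptosis, had the highest mean. Gpx4 (chromosome 10, 80047166 to 80056439) had 214, 231, 531 and 507 CPM, and the cytosolic peroxidase Gpx1 (chromosome 9, 108338903 to 108340343) had 163, 196, 23.8 and 20.9 CPM. The pairs of libraries did not overlap for either gene and they moved in opposite directions, so that Gpx4 exceeded Gpx1 1.31- and 1.18-fold in replicates 1 and 2 and 22.3- and 24.3-fold in replicates 3 and 4. Both were called above the median gene (limma adjusted p = 8.50e-05 for Gpx4 and 0.0135 for Gpx1), and Gpx1 lost the call with each gene's own variance (adjusted p = 0.0885) and with a filter at a mean of 10 CPM (0.268). The transcript of the copy Gpx4-ps2 matched Gpx4 at 99.7% over 762 bases up to the 3′ end and was not analysed here, so the level of Gpx4 is uncertain.

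Gpx8, an endoplasmic reticulum peroxidase with cysteine in place of selenocysteine, had 28.0, 26.0, 83.4 and 63.5 CPM. Gpx2, a selenoenzyme best known from gut epithelium, had 9.37, 10.8, 24.4 and 25.1 CPM. Like Gpx4, both were higher in replicates 3 and 4, by 2.72- and 2.45-fold in the pair means against 2.33-fold for Gpx4. Gpx8 exceeded Gpx2 in 4 of 4 libraries (log2 difference 1.43 ± 0.24, exact sign-flip p = 0.13). Gpx3, the secreted plasma form, had 9.67, 8.58, 3.59 and 4.43 CPM, and Gpx7 had 6.41, 7.13, 4.48 and 2.91 CPM. Gpx3 and Gpx7 were called below the median gene (limma adjusted p = 0.00531 and 0.00115) and could not be ranked against each other (log2 difference 0.24 ± 0.36, exact sign-flip p = 0.375). Gpx3 lost the call on library pair means (limma adjusted p = 0.0645). On CPM per kb neither passed (limma adjusted p = 0.545 and 0.181), and with no filter both were called above the median gene (0.0163 and 0.0333). Gpx5, an epididymal form, had 5 reads in replicate 1 and 0 elsewhere, and Gpx6 was at 0 throughout. Of the 7 genes with a selenocysteine codon, 4 (Gpx1, Gpx3, Txnrd2 and Txnrd3) were higher in replicates 1 and 2 and 3 (Gpx2, Gpx4 and Txnrd1) in replicates 3 and 4, without overlap. Most genes that reached 10 CPM on average also parted the pairs (84.9%).

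The enzymes that make and reduce glutathione had means of 14.2 to 63.5 CPM. Gsr, glutathione reductase, had 102, 78.4, 28.9 and 44.4 CPM. Gclm and Gclc, the modifier and catalytic subunits of glutamate-cysteine ligase, had 46.7, 39.4, 27.1 and 29.6 CPM and 23.4, 15.6, 45.4 and 35.3 CPM. The order of the subunits turned between the pairs: Gclm exceeded Gclc 2.00- and 2.53-fold in replicates 1 and 2, and the ratios were 0.597 and 0.839 in replicates 3 and 4 (log2 difference 0.32 ± 0.96, exact sign-flip p = 0.625). On CPM per kb the mean order of the subunits turned as well (log2 difference -0.39). Gss, glutathione synthetase, had 21.4, 25.6, 4.30 and 5.40 CPM and lay above the median gene in replicates 1 and 2 and below it in replicates 3 and 4. Gsr, Gclm and Gclc were called above the median gene (limma adjusted p = 0.000874, 0.000536 and 0.0278), and Gss did not pass (0.55). The call of Gclc was lost without replicate 3 or 4 (adjusted p = 0.0922 and 0.0966) and on library pair means (0.0739). It was also lost with each gene's own variance (adjusted p = 0.109).

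In the γ-glutamyl cycle, which breaks glutathione down and recovers its amino acids, Ggt7 and Ggct led. Ggt7, a γ-glutamyltransferase family member, had 71.3, 81.3, 80.5 and 65.5 CPM, and Ggct, γ-glutamylcyclotransferase, had 69.9, 78.0, 52.5 and 41.7 CPM. Ggt7 differed little between libraries, and the pairs overlapped. Both were called above the median gene (limma adjusted p = 6.31e-05 and 0.000121) and Ggt7 exceeded Ggct in 4 of 4 libraries by a log2 difference of 0.33 ± 0.33, about the size of its spread. Ggt5 had 2.66, 4.46, 2.15 and 1.25 CPM. Ggt1, the cell-surface enzyme that starts the breakdown of extracellular glutathione, had 11, 14, 1 and 0 reads, and Ggt6 was at 0 in every library.

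Glutaredoxins were led by Glrx5, the mitochondrial monothiol form that passes on iron-sulfur clusters. Glrx5 had 378, 388, 378 and 376 CPM (380.1 ± 5.26, SD, n = 4), an SD of 0.02 on the log2(CPM + 1) scale where the median tested gene had 0.44 and the median tested member 0.65. Its pairs of libraries overlapped, and it was 26.4-fold above the median gene (limma adjusted p = 1.20e-05). Glrx3, a cytosolic monothiol form, had 233, 217, 93.4 and 77.1 CPM, and Glrx2, a second mitochondrial form, had 49.4, 51.1, 38.9 and 42.2 CPM. Both were called above the median gene (limma adjusted p = 0.000123 and 0.000145). Glrx, the classic dithiol cytosolic form, had 16.7, 14.4, 31.9 and 22.0 CPM and did not pass (limma adjusted p = 0.0954). The order Glrx5, Glrx3, Glrx2, Glrx held in 4 of 4 libraries (exact sign-flip p = 0.13 for each step), while on CPM per kb the last step held in 3 of 4.

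Glutathione transferases were low in these libraries. Of 24 genes, 4 were at 0 throughout (Gsta2, Gstm3, Gstp2 and Gstt4), 6 had reads but a mean under 1 CPM, and 2 reached a mean of 10 CPM. Those 2 were Gstz1, the zeta class enzyme of tyrosine breakdown, with 13.2, 12.4, 25.5 and 17.7 CPM, and the mu class gene Gstm2, with 17.0, 17.9, 2.51 and 5.81 CPM. Neither differed from the median gene by limma (adjusted p = 0.349 and 0.204). Of the 24, 13 were higher in replicates 1 and 2 without overlap, and Gstz1 alone was higher in replicates 3 and 4. The 13 include Gsta1 and Mgst2, which rest on a few reads. Among all genes that reached 10 CPM on average, 84.9% parted the pairs in either direction. No such share is given here for lower genes, so the count is not shown to be a trait of the transferases.

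The 7 mu class genes lie side by side on chromosome 3, between 107895821 (Gstm5) and 108044894 (Gstm4). Gstm5 had 16.0, 17.5, 3.05 and 1.80 CPM, and Gstm1 had 9.37, 8.47, 0.359 and 0.415 CPM. All 3 of Gstm2, Gstm5 and Gstm1 dropped to a few CPM or less in replicates 3 and 4, where Gstm1 had 2 and 3 reads. Gstm2 and Gstm5 could not be ranked (log2 difference 0.30 ± 0.67, exact sign-flip p = 0.625), and their order turned on CPM per kb. Gstm4 had 3.35, 4.79, 1.08 and 1.66 CPM, Gstm7 had 2.86, 3.79, 0.717 and 2.91 CPM, and Gstm6 had 1, 1, 2 and 0 reads. Gstm1, Gstm4 and Gstm7 were called below the median gene (limma adjusted p = 0.0169, 0.000413 and 0.000487). For Gstm1 the call was lost without replicate 3 or 4 (adjusted p = 0.0558 and 0.0588).

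Of the other classes, Gstk1, the mitochondrial and peroxisomal kappa form, had 12.6, 12.3, 0.538 and 0.831 CPM, and the microsomal gene Mgst3 had 7.89, 5.68, 0.359 and 0.277 CPM. Replicates 1 and 2 exceeded replicates 3 and 4 in the pair means 18.2-fold for Gstk1 and 21.4-fold for Mgst3, which had 2 reads in each of replicates 3 and 4. Gsto1 had 8.78, 9.69, 1.97 and 1.66 CPM, Mgst1, which protects membranes, 7.89, 8.24, 1.26 and 2.21 CPM, and Gsta4, which conjugates the lipid aldehyde 4-hydroxynonenal, 4.73, 4.01, 2.33 and 2.49 CPM. All 5 genes were called below the median gene (limma adjusted p = 0.0433 for Gstk1, 0.00723 for Mgst3, 0.0111 for Gsto1, 0.00696 for Mgst1 and 0.000188 for Gsta4). The call of Gstk1 was lost without replicate 3 or 4 (adjusted p = 0.137 and 0.142). With each gene's own variance the calls of Gstk1, Mgst3, Gsto1 and Mgst1 were lost (adjusted p = 0.162, 0.0625, 0.0713 and 0.0550). On CPM per kb all 5 calls were lost. The theta class was led by Gstt2 with 7.10, 12.1, 3.59 and 2.63 CPM, and the steady but low Gstt1 had 0.888, 1.23, 1.08 and 1.11 CPM. Both theta genes were called below the median gene (limma adjusted p = 0.0107 and 4.44e-05), and so was the omega gene Gsto2, with 1.87, 2.90, 4.48 and 2.08 CPM (0.000432). Gstt2 lost the call with each gene's own variance (adjusted p = 0.0619). Of the members with reads but a mean under 1 CPM, the values were, for Gstt3, 1.87, 1.89, 0.179 and 0 CPM, for Mgst2 7, 9, 0 and 3 reads and for Gsta3 5, 3, 1 and 5 reads.

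The pi class was close to 0. Gstp1 (chromosome 19, 4035407 to 4037985) had 2, 1, 0 and 1 reads in replicates 1 to 4, and Gstp2, its neighbour, had none. The transcripts of the 2 genes are 98.2% identical over 707 bases that run to the 3′ end, the part such libraries read, and a processed pseudogene, Gstp-ps, is 97.6% identical to Gstp1 over 631 bases and was also listed at 0. How reads that match several genes were treated is not given in the sources used here, so the levels of both pi class genes are uncertain. The same holds for Gsta1 and Gsta2, 97.2% identical over 870 bases to the 3′ end, with 8, 2, 1 and 1 reads and none. Of the abundant members, Prdx1 and Prdx2 have processed pseudogenes in the annotation (identity 98.3% and 97.5% for the 2 of Prdx1, 96.3% for that of Prdx2), all listed at 0. That of Glrx3, Gm12669, is 99.1% identical over 1014 bases and had 0, 0.334, 0 and 0.138 CPM. A processed pseudogene of Gpx4, AC122253.3 (identity 95.1%), was not analysed here.

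Replicates 1 and 2 were compared with replicates 3 and 4 as 2 pairs of libraries, with no test, since they are not groups of the study. Of the 23 members with a mean of at least 10 CPM, 9 were at least 2-fold higher in the pair mean of replicates 1 and 2 without overlap (39.1%), where 23.7% of all such genes were. In the other direction it was 4 of 23 (17.4%), where 9.56% of all such genes were. The 9 were Gpx1, Txn1, Prdx1, Prdx2, Gss, Gstm2, Glrx3, Gsr and Srxn1, and the 4 were Gpx8, Gpx4, Gpx2 and Gclc. The largest differences were 8.03-fold for Gpx1, 5.43-fold for Txn1, 4.92-fold for Prdx1 and 4.85-fold for Gss. With any size of difference, 21 of the 23 parted the pairs without overlap, where 84.9% of all such genes did. With libraries rescaled to their reads outside the mitochondrial genome and the 18S entries, both counts stayed within 1.5 times of these.

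**Figure D3:**
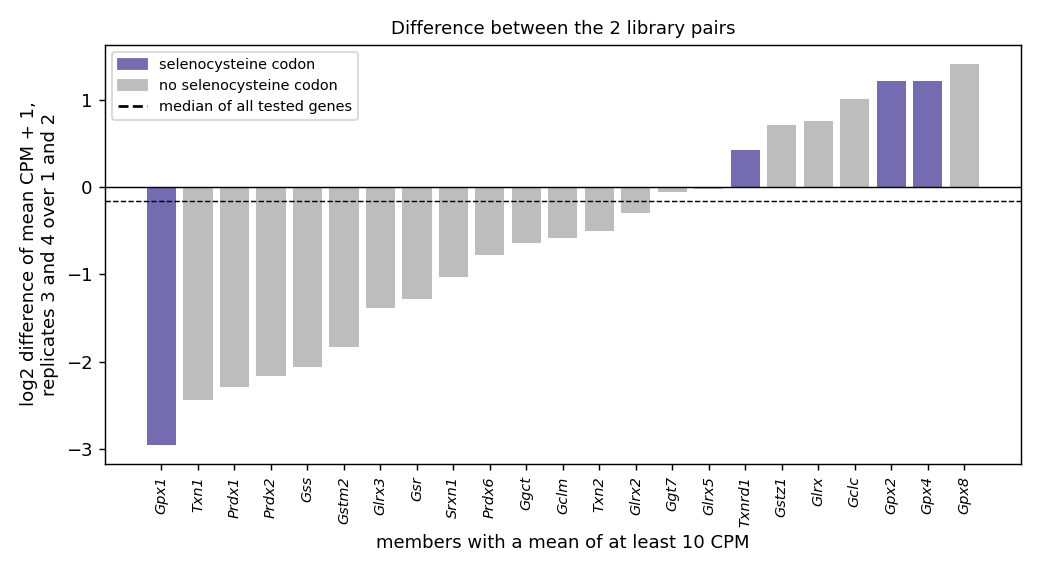
Log2 difference of the pair means of CPM + 1, replicates 3 and 4 over replicates 1 and 2, for the 23 members with a mean of at least 10 CPM. Purple bars carry a selenocysteine codon, and the dashed line is the median of all tested genes (-0.16). Gpx1, Txn1, Prdx1, Prdx2 and Gss lie below -2, while Gpx8, Gpx4, Gpx2 and Gclc lie above 1.

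The median log2 difference of replicates 3 and 4 over replicates 1 and 2 was -0.92 for the 43 tested members and -0.16 for all tested genes. Exonic length moved with this difference. Genes with under 2000 bases of exon had a median of -0.52, those of 2000 to 4000 bases -0.39, and longer genes 0.02. Members had -1.43 (16 genes), -1.03 (14 genes) and -0.64 (13 genes) in the same classes, lower than all genes in each. Across genes, Spearman's rho of the difference with exonic length was 0.25 over 14777 tested genes and 0.38 over the 43 members, a description over genes that share the same libraries. The part of transcript length, of Schwann cell, glial and blood RNA and of the 18S entries in these differences was not tested.

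**Figure D4:**
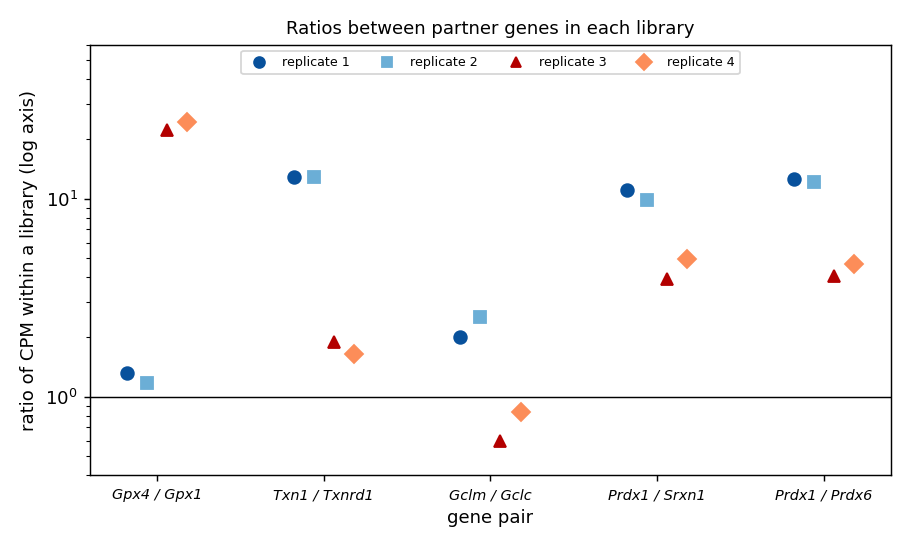
Ratio of CPM between partner genes within each library (log axis, 1 point per library, line at 1). Gpx4 over Gpx1 is near 1 in replicates 1 and 2 and above 22 in replicates 3 and 4, Txn1 over Txnrd1 and Prdx1 over Srxn1 or Prdx6 are higher in replicates 1 and 2, and Gclm over Gclc crosses 1.

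The promoters of the members were searched for TGACNNNGC, the core of the antioxidant response element through which NRF2 and small Maf proteins act on many of these genes. RefSeq promoter windows (GRCm38.p6, 250 bases before to 50 after a start site) were found for 51 of the 57 genes. The motif, read on both strands as TGACNNNGC or GCNNNGTCA, occurred in 12 of 72 member windows (16.7%) and in 12.4% of the 32851 windows of all genes, without regard to overlap with other motifs. By gene this was 10 of 51 (19.6%) against 14.0%. The 10 genes were Prdx1, Srxn1, Txnrd1, Gclm, Ggct, Ggt1, Gsta3, Gstm5, Gstm7 and Mgst1. The windows of 4 of them are given, 5′ to 3′ on the gene's strand with the motif in capitals, since they include a peroxiredoxin, the enzyme that rescues it, the reductase of the thioredoxin that recycles it and a subunit of glutathione synthesis.
Prdx1 promoter, chr4:116685349-116685648, plus strand: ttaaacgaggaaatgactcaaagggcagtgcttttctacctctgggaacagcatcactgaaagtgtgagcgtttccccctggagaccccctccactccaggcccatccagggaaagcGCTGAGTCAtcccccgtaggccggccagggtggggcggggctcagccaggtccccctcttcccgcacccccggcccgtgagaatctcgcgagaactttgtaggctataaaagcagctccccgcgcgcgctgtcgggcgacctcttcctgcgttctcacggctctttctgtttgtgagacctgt
Srxn1 promoter, chr2:152105274-152105573, plus strand: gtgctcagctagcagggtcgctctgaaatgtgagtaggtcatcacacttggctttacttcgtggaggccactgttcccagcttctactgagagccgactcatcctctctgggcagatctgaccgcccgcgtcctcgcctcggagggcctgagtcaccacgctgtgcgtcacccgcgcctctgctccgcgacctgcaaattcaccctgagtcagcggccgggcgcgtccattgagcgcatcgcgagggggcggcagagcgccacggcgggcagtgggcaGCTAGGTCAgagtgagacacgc
Txnrd1 promoter, chr10:82858956-82859255, plus strand: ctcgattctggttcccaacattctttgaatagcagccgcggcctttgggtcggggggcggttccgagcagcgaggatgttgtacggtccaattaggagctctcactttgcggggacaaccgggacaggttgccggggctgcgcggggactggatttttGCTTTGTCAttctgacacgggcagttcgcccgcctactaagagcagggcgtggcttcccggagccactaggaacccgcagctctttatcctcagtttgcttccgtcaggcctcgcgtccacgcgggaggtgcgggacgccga
Gclm promoter, chr3:122245307-122245606, plus strand: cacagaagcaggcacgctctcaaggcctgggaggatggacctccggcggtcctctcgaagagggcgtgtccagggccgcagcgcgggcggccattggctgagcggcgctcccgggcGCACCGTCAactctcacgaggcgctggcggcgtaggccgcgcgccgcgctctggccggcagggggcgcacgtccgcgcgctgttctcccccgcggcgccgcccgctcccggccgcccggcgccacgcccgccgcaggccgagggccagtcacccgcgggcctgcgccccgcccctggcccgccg
The motif began 133 bases before the start site in Prdx1, 92 in Txnrd1 and 134 in Gclm (positions -133, -92 and -134) and 28 bases after it in Srxn1. These 4 genes did not share a direction between the library pairs: Prdx1, Srxn1 and Gclm were higher in replicates 1 and 2 and Txnrd1 in replicates 3 and 4. A match describes the letters in the window only.

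Genes around these systems were described from 6 lists. Among all tested genes, 39.7% were called above the median gene and 39.7% below. The counts of each list are to be read beside these shares, and a count near them is no trait of the list. Of 10 genes of the NRF2 pathway, 8 were above the median gene, 1 below, and Maff was under 1 CPM. Nfe2l2, the gene of NRF2 itself, had 77.0, 73.9, 80.9 and 74.3 CPM and Keap1, its inhibitor, 104, 120.3, 58.8 and 56.3 CPM. Nfe2l2 was thus level across libraries while Keap1 was higher in replicates 1 and 2. Sqstm1, an adaptor that binds KEAP1, led the list at 309 ± 78.4 CPM (SD, n = 4). Of 11 other antioxidant enzymes, 6 were above, 4 below and 1, catalase, did not pass. Cat had 109, 100.4, 12.7 and 11.5 CPM, the same direction between the pairs as Gpx1 and the peroxiredoxins. The superoxide dismutases Sod2 and Sod1 had 326 ± 149 and 185 ± 126 CPM.

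NADPH, which both reductases consume, is supplied by the pentose phosphate pathway and by isocitrate and malic enzymes. Of 15 such genes, 7 were above and 4 below the median gene, where 39.7% of all tested genes were called in each direction. Taldo1 and Tkt of the non-oxidative branch had 810 ± 82.5 and 643 ± 97.7 CPM, Idh1 had 451 ± 294 CPM, and G6pdx, the entry enzyme of the oxidative branch, had 1.32 ± 0.865 CPM. Of 15 genes of cysteine and glutathione supply and use, 11 were tested, and of those 2 were above and 4 below. Cth, Cbs, Gnmt and Chac1 were under 1 CPM on average and were not tested. Slc7a11, the cystine importer, had 2.96, 3.45, 7.89 and 6.23 CPM and was below the median gene (limma adjusted p = 0.00665), and Cbs, the first enzyme of transsulfuration, was at 0 in every library. Of 9 selenoprotein synthesis genes, 3 were above and 3 below, led by Secisbp2l at 256 ± 33.9 CPM, with the elongation factor gene Eefsec lowest at 1.35 ± 1.01 CPM. Of 13 thioredoxin-fold partners, 9 were above and 2 below. Pdia3, an endoplasmic reticulum disulfide isomerase, led them at 586 ± 162 CPM, and Txnip, which binds and inhibits thioredoxin, had 188, 165, 125 and 131 CPM.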

How the data were processed

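RNA of dorsal root ganglia was measured in 4 libraries of 1 group. Per the labels' protocols, TRIzol RNA went through RiboCop removal of ribosomal RNA and then a QuantSeq kit for 3′-end libraries. The submitters' processing notes name mm10 and GRCm38.p4 as builds and, with no role for each, Cufflinks 2.2.1, Bowtie2 2.2.9, TopHat2 2.1.1 and FastQC 0.11.5 as tools. For strand and for reads with several matches, the handling is not given in the sources used here. Per the file headers the deposited values are TPM, but they were used as CPM: they sum to 1000000 per library, and at least 98.2% of values above 0 were, within 0.05, whole multiples of a step that is the same for every gene of a library. The others were fractions, so no count model was used.

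Members and lists were chosen with earlier results of these data known. Functional groups were assigned by symbol, with the 57 members in 12 groups. Per-library values are given for the leading 2 and the lowest members of each group, for members that part the library pairs at least 2-fold and for near-identical genes, and other members named were chosen after their values were seen. Of the wider lists, leading and lowest genes and a few regulators chosen after seeing their values are named.

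A mean of 1 CPM or more was required for testing. limma 3.58.1 under R 4.3.3 fitted an intercept with moderated variance and a two-sided test to log2(CPM + 1) minus the library's median, with Benjamini-Hochberg adjustment over 14817 genes. The procedure was tested on simulated data with known offsets. The simulated libraries were independent, so that test does not cover the split of the real libraries into pairs. Gene pairs were compared by an exact two-sided sign-flip test on within-library differences. Gene positions and exonic lengths came from GENCODE M21, which held 48052 (99.2%) of the identifiers. Copies were sought with BLAST 2.17.0 among its transcripts (at least 95% identity over at least 50% of the member's transcript). Alternatives were the pseudocount, filters, rescaling, exonic length, variance, library pairs and each replicate left out.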

Additional observations from a re-analysis of the deposited data

Results flagged for a closer look

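Gpx5 and Gsta1 each had a library far from the others, by Dixon's ratio of the gap to the range, which was 1 for Gpx5 and 0.87 for Gsta1, above the critical value for 4 libraries. Both rest on a handful of reads in replicate 1: Gpx5 had 5, 0, 0 and 0 reads in replicates 1 to 4, and Gsta1 had 8, 2, 1 and 1. Of 63 results examined in this way (51 members with reads and 12 group shares), 2 passed the critical value, and chance gives about 1 in 20.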

How the results depend on the processing

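Of the 43 tested members, 12 kept direction and call in every setting run: Txn1, Prdx1, Prdx2, Prdx6, Srxn1, Txnrd1, Gpx4, Glrx5, Glrx3, Ggt7 and Ggct above the median gene and Gstt1 below it. No paired analysis was possible because all libraries belong to 1 group. Members called above the median gene, 18 in the report, were 11 with a filter at a mean of 10 CPM and 28 with no filter, and members called below, 17 in the report, were 6 and 9. Filters change the genes over which the median is taken and the number of members tested. That number was 23 with the filter at 10 CPM and 51 with no filter, against 43 in the report. The count below was 7 on CPM per kb of exonic length and 9 with each gene's own variance. Leaving out each replicate gave 17 to 18 above and 14 to 18 below. In replicates 1 and 2 only, 18 and 16 were called, and in replicates 3 and 4 only, 21 and 22, settings chosen after seeing the data that rest on 2 libraries each. The shares of all genes called in these alternative settings are not given here, so the counts do not describe the members against other genes.

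Directions that turned are given as log2 differences from the median gene. On CPM per kb these were 0.14 for Txnrd3, 0.73 for Gstm5, 0.17 for Gpx3, 0.31 for Prdx5, 0.82 for Prdx3, 0.36 for Gpx7 and 0.70 for Gstm2. With no filter they were 1.31 for Txnrd3, 0.90 for Gstm5, 0.26 for Mgst1, 0.78 for Gpx3, 1.11 for Prdx5, 1.15 for Prdx3, 0.38 for Gsto1, 1.53 for Gss, 0.54 for Gpx7, 0.20 for Gstk1, 0.048 for Gsta4, 0.65 for Gstt2, 1.20 for Gstm2 and 0.16 for Txnrd2. With a filter at 10 CPM they were -0.69 for Txn2, -1.07 for Gstz1, -0.79 for Glrx, -0.039 for Gclm, -0.36 for Gclc and -1.13 for Gpx2. In replicates 1 and 2 only they were 0.16 for Gstm5, -0.20 for Gstz1, 0.094 for Prdx3, 0.62 for Gss, 0.22 for Gstm2 and -0.52 for Gpx2. Leaving out each replicate gave -0.63 to 0.076 for Gss and -0.0398 to 0.51 for Gpx2. Apart from the filters, the cause was not tested.

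On CPM per kb, group shares moved to 0.00871% for the γ-glutamyl cycle, 0.000872%, 0.00574% and 2.01e-05% for the alpha, mu and pi classes, 0.0956% for glutathione peroxidases, 0.0398% for glutaredoxins and 0.199% for thioredoxins. Log2 differences between leading members moved to 1.83 (Gsr over Gclm), 1.54 (Ggt7 over Ggct), 2.69 (Gsta4 over Gsta3), 0.68 (Gstt2 over Gstt1) and 4.97 (Txn1 over Txnrd1), and Gstm2 over Gstm5 turned to -0.026. With a pseudocount of 0.1, Gsta4 over Gsta3 moved to 2.78. Gstm2 over Gstm5 ranged from -0.030 to 0.47 with each replicate left out. With the minimum mean for the library pair comparison at 1 CPM, 24 of 43 members were 2-fold higher in replicates 1 and 2. At 3-fold none of those with a mean of at least 10 CPM was higher in replicates 3 and 4 (0). The shares of 23.7% and 9.56% of all genes hold for 2-fold and a mean of at least 10 CPM only. Shares for these 2 settings are not given here, so neither count describes the members against other genes. Depth limits genes of a few reads, and p-values treat the 4 libraries as independent although they fell into pairs.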
